A study of Mus musculus with 8 samples.

Results

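Interferon-induced genes were followed in CD4+ T cells that had been recovered from a mouse model of colitis, with and without the kinase gene Irak1. The set holds 47 named genes, and each was read from the probe set whose annotation gave that symbol alone, taking the one with the highest mean over all 8 arrays where there were several. Such a probe set was found for 42 of the 47, among 22180 genes on the array, and 39 of those lay above the level filter used for testing. The filter kept the 13308 genes whose mean over 8 arrays reached the 40th percentile. Mx1, Rsad2 and Phf11d lay below it, and Oas1a, Ifi44, Gbp2, Tgtp1 and Ly6a were not analysed here.

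All mice were of the C57BL/6 strain. Wild-type (wt) cells carried the CD45.1 form of the surface protein CD45 and Irak1-/- cells the CD45.2 form, so the deleted gene and the CD45 form cannot be told apart between the groups. Equal numbers of CD4+CD62L+ cells of both kinds were injected into the same Rag1-/- mice, which lack T and B cells of their own but keep myeloid and natural killer cells. Both populations had thus spent 14 days in the same inflamed hosts when they were sorted as CD3+ CD4+ cells from the mesenteric lymph nodes. In each of 4 experiments the cells of 2 recipients were pooled by genotype, so that 1 wt and 1 Irak1-/- array from the same hosts form a pair. The sources used here give neither the age of the mice nor the deleted part of Irak1. The fit takes the pair into account. Its p-values, SEs and intervals start from how much the differences within pairs vary over the 4 pairs. For each gene, limma then draws this variance toward that of all genes tested. They are therefore not a measure of a gene's own spread over the pairs alone.

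Interferons act through JAK kinases and STAT factors. Type I interferons bring a complex that includes STAT2 and IRF9 to a DNA element called the interferon-stimulated response element, which drives antiviral genes such as Ifit1, Isg15 and the Oas family. Interferon gamma, the main cytokine of Th1 cells, acts through DNA elements called gamma-activated sites and also induces the factor IRF1, and together these switch on immunity-related GTPases and guanylate-binding proteins that attack the membranes around intracellular microbes. IRAK1 belongs to another route, from IL-1 family and Toll-like receptors to NF-kappaB.

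Promoters were searched for both elements. The table of RefSeq promoters used here (build GRCm38.p6) matched 34 of the 47 genes, and the 250 bases before each start site were searched. The core searched for the interferon-stimulated response element was TTTC, any 2 bases and TTTC again, on both strands. The core searched for STAT sites was TTCNNNGAA, which reads the same on both strands, and matches of the 2 cores were allowed to overlap. The response element core was found at 17 of the 34 genes, against 3.46% of 27025 genes in the table. The STAT core was found at 11 (32.4%), against 8.13%. Both cores were found at 7 members (Bst2, Gbp5, Gbp7, Igtp, Irgm2, Oas1a and Tgtp1) and neither at 13. All 7 of the GTPases named in the rule that had an entry (Gbp2, Gbp3, Gbp5, Gbp7, Igtp, Irgm1 and Irgm2) held the response element core, as did 7 of 15 antiviral genes. These are matches of letters in a fixed window and are given as a description.

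The 180 bases before the start site are printed for 6 members that the results turn on and that had such a match, on the plus strand, with matches in capitals. Irf1 and Ifit1 each hold 1 kind of element, Gbp5 and Gbp7 hold both kinds apart, and Igtp and Irgm2 hold both side by side. Irf1 lies at chr11:53769834-53770013, Ifit1 at chr19:34640709-34640888, Gbp5 at chr3:142496754-142496933, Gbp7 at chr3:142530156-142530335, Igtp at chr11:58199376-58199555 and Irgm2 at chr11:58214797-58214976.
Irf1: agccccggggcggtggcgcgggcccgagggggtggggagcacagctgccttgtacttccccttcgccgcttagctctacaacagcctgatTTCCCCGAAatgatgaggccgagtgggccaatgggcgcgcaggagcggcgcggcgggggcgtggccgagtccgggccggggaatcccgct
Ifit1: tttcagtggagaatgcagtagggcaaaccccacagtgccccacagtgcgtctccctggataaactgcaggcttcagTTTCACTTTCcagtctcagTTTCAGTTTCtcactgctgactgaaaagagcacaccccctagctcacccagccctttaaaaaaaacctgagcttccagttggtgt
Gbp5: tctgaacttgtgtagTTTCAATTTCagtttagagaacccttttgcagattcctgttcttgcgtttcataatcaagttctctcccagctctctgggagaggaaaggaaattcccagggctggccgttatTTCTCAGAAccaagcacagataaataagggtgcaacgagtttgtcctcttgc
Gbp7: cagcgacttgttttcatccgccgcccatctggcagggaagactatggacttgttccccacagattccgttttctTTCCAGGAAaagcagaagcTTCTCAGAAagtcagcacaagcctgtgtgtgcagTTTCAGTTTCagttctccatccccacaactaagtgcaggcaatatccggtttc
Igtp: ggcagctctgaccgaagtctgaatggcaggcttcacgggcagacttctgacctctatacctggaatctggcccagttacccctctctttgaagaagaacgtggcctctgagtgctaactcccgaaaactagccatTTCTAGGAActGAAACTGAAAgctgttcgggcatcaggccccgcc
Irgm2: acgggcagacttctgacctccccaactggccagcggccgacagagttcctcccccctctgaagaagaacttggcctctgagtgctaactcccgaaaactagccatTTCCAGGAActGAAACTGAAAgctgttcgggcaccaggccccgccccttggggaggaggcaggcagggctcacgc

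In Igtp and Irgm2 the STAT core starts 11 bases before the response element core, 45 bases before the start site of Igtp and 75 before that of Irgm2. Tgtp1, another GTPase of the family, has the same spacing of 11 bases. The start sites of Igtp and Irgm2 lie 15421 bases apart on chromosome 11, and the printed stretches share an identical run of 38 bases. Across the table, 18 of 27025 genes (0.0666%) had a STAT core starting at most 12 bases before a response element core, and 4 of the 34 members were among them. Gbp5 has a further STAT core 245 bases before its start site, outside the stretch printed.

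Levels are log2 values of the probe sets as deposited, with array medians between 4.25 and 4.31. Over all probe sets, 7 arrays correlated with each other at 0.969 to 0.981, while the remaining one, Irak1-/- replicate 3, reached 0.950 to 0.957 with them. The labels give a purity above 99.5%. T cell markers were present in both groups, with wt and Irak1-/- means of 10.73 ± 0.0660 and 10.69 ± 0.148 for Cd3e (SD, n = 4 each) and of 9.04 ± 0.121 and 8.92 ± 0.253 for Cd4. Myeloid markers were higher on the Irak1-/- arrays for 22 of 22 tested, 8 of them at an adjusted p under 0.05. The list was partly chosen for that in earlier results. Of all 13308 genes, 5570 were higher and 0.0676% were called higher. Some of the 22 passed the level filter of 3.90 only through their Irak1-/- arrays. Wt means of Clec4a3, Mpeg1, Cybb, Csf1r and Lyz2 were 3.03, 3.41, 3.44, 3.81 and 3.84. Others hardly differed, such as Fcgr2b at 0.02 and Itgam at 0.05. The summed level of the myeloid markers ran from 9.86 to 10.06 in wt and from 10.79 to 11.53 in Irak1-/- arrays on the log2 scale. Lyz2 read 2.34 to 4.59 in wt and 7.30 to 8.78 in Irak1-/- arrays. Tyrobp read 5.20 to 5.96 in wt and 7.04 to 8.45 in Irak1-/- arrays, and Fcer1g 4.74 to 5.25 and 6.57 to 7.47. The myeloid genes Cd14, Cd5l and Vcam1, the dendritic gene Flt3 and the B cell gene Ms4a1 lay below the level filter. Cd5l had a lower mean in Irak1-/- arrays (2.79 against 2.96 in wt), while Cd14 and Vcam1 had higher ones. Summed natural killer and CD8 T cell markers ran from 10.19 to 10.45 in wt and from 9.74 to 9.99 in Irak1-/- arrays. Klrd1, by far the highest of them, carried most of this sum, at 9.90 ± 0.122 and 9.34 ± 0.247. Of the 8 markers, 5 had negative and 3 positive differences, and 0 were called. The B cell sums overlapped (7.75 to 8.38 and 7.76 to 8.64), as did those of stromal and endothelial markers (7.45 to 7.74 and 7.43 to 7.82). Dendritic cell sums ran from 7.72 to 7.94 in wt and from 7.52 to 7.68 in Irak1-/- arrays. Of 6 dendritic markers tested, 4 had negative differences, the largest that of Itgax (-0.59), 2 had positive ones, and 0 were called. The part of these cell type markers in the values of the interferon-induced genes was not tested, and in sorted bulk samples fewer cells of a type and less RNA per cell cannot be told apart. The probe set of Irak1 gave 6.77 ± 0.332 for wt and 6.84 ± 0.167 for Irak1-/- arrays. With the deleted part unknown, it does not check the genotype.

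Irak1-/- cells were compared with wt cells from the same hosts to see which differences go with the T cells' own genotype. None of the 39 tested members passed in either direction by limma at an adjusted p under 0.05, in a fit over all 13308 genes with the pair as a block. Over all genes 0.0751% were called, 0.0676% higher and 0.00751% lower. The lowest adjusted p among members was 0.449, that of Gbp5. At an unadjusted p under 0.05 there were 2 members higher (Gbp5 and Usp18) and 2 lower (Irf1 and Trim30a), beside 2.88% and 3.82% of all genes (6.7% in either direction). The median log2 difference of the members, Irak1-/- minus wt, was -0.01, beside -0.03 over all genes, with 17 members above 0 and 22 below.

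The intervals are those of single genes and are not adjusted for the number of genes. Those of Gbp5, Usp18, Irf1 and Trim30a thus left out a difference of 0, though none of these passed the adjusted threshold. The 95% confidence interval lay between -1 and 1 on the log2 scale for 39 of 39 members, and between -0.5 and 0.5 for 30. The interval reached from 0.234 (Nlrc5) to 0.470 (Gbp9) to either side of the estimate, with a median of 0.273. The lowest bound of any interval was -0.72 (Bst2) and the highest 0.77 (Gbp5). The wt and Irak1-/- ranges overlapped for 39 of 39 members, while 3.04% of all genes had ranges that did not.

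**Figure D1:**
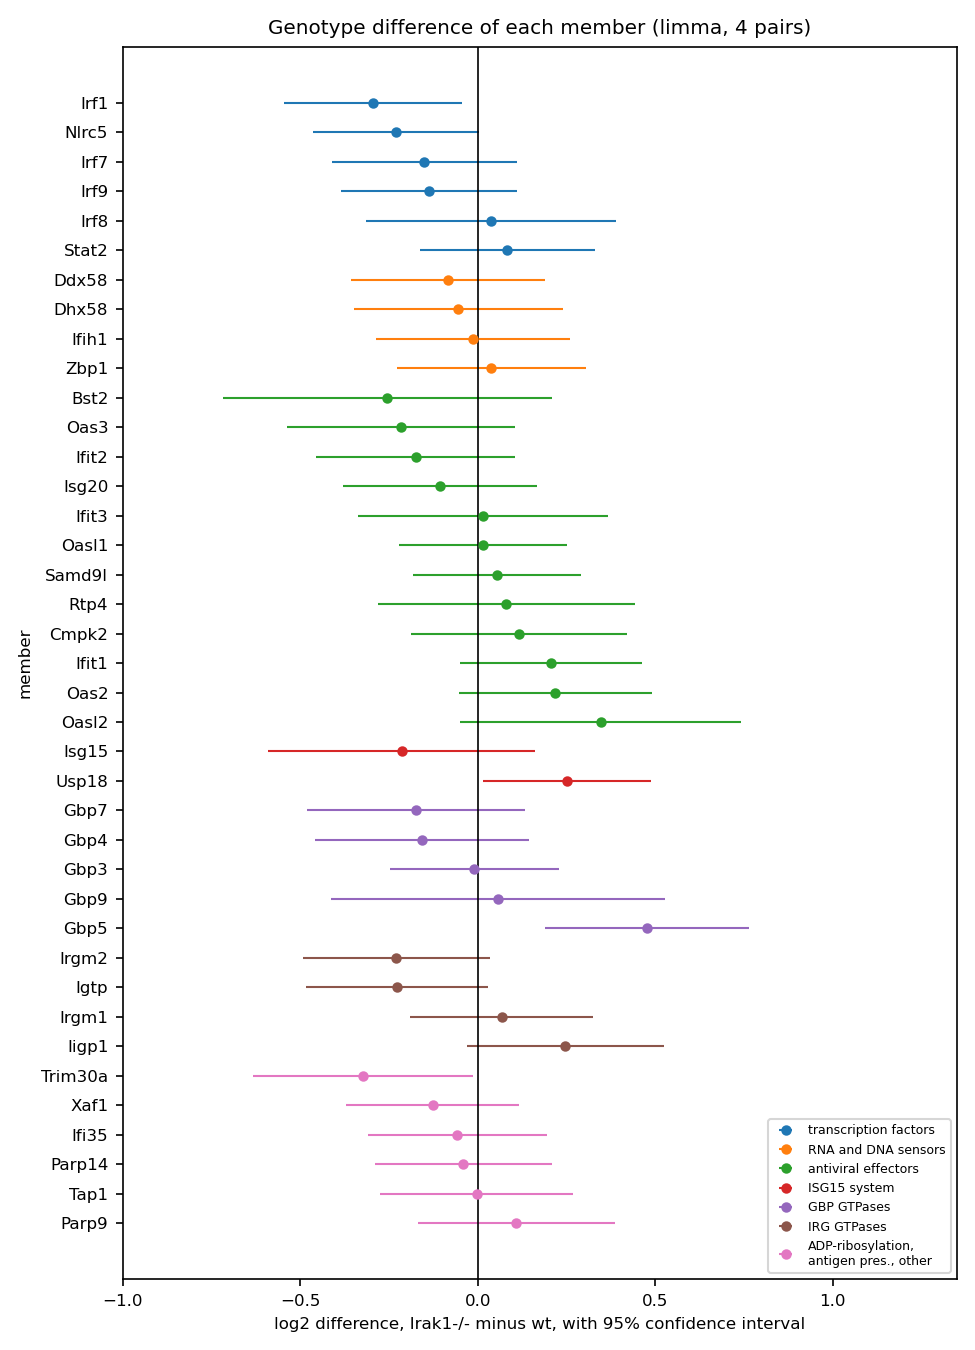
Log2 difference of each of the 39 tested members, Irak1-/- minus wt, from limma with the pair as a block; points are estimates from 4 pairs and bars are 95% confidence intervals, coloured by role group. Every interval lies within -1 to 1, and Gbp5, at 0.48, is farthest to the right.

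Of 6 transcription factors tested, 4 had negative and 2 positive differences, and none passed. Irf1, the factor induced by interferon gamma that switches on the GTPases, read 7.42, 7.04, 7.17 and 7.13 in wt replicates 1 to 4 and 7.34, 6.73, 6.80 and 6.71 in Irak1-/- replicates 1 to 4. The level was lower in 4 of 4 pairs, yet the Irak1-/- array of replicate 1 lay above 3 of the wt arrays. The log2 difference was -0.30 (SE 0.111, 95% confidence interval -0.55 to -0.04, limma adjusted p = 0.660). Nlrc5, the transactivator of MHC class I genes, read 7.11, 7.08, 7.37 and 7.37 in wt and 6.86, 6.91, 7.16 and 7.08 in Irak1-/- arrays of the same replicates, again lower in 4 of 4 pairs, with a difference of -0.23 (SE 0.103, adjusted p = 0.763). Irf9, the DNA-binding partner of STAT2, was lower in 4 of 4 pairs as well, at -0.14 (adjusted p = 0.898).

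Irf7, which amplifies type I interferon production, read 6.47, 6.49, 6.38 and 6.42 in wt and 6.08, 6.53, 6.26 and 6.28 in Irak1-/- arrays, a difference of -0.15 (adjusted p = 0.893). Stat2 had a difference of 0.08 and Irf8, a factor also used by myeloid cells, 0.04. A second probe set of Irf8, with a lower mean level of 4.97 against 5.98, had a difference of 0.08, and the probe sets had opposite signs in 3 of 4 pairs.

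The 4 sensors of nucleic acid had differences between -0.08 and 0.04, and none passed. Ddx58 (RIG-I) and Ifih1 (MDA5), which detect viral RNA in the cytosol, had log2 differences of -0.08 and -0.01. Ddx58 read 7.19, 7.33, 7.67 and 7.42 in wt and 7.39, 7.30, 7.42 and 7.16 in Irak1-/- arrays, with overlapping groups. Dhx58 (LGP2), which modulates both sensors, read 5.11, 5.32, 4.68 and 4.97 in wt and 5.18, 5.32, 4.23 and 5.14 in Irak1-/- arrays, so the arrays of replicate 3 were the lowest in each group. Its difference was -0.05 (adjusted p = 0.963), and it turned to 0.08 without replicate 3. Zbp1, a sensor of Z-form nucleic acid, read 9.07, 8.89, 8.67 and 8.83 in wt and 8.94, 8.75, 8.90 and 9.02 in Irak1-/- arrays, with a difference of 0.04 that turned to -0.03 without replicate 3 and -0.01 without replicate 4.

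Antiviral effectors were split around 0. Of the 12 tested, 8 had positive and 4 negative differences, with a median of 0.04 on the log2 scale. Ifit1, which binds viral RNA caps, read 5.41, 5.31, 5.18 and 5.48 in wt and 5.69, 5.65, 5.15 and 5.71 in Irak1-/- arrays. In 3 pairs the Irak1-/- array was higher, and in replicate 3 both arrays were low and close together. The difference was 0.21 (SE 0.112, adjusted p = 0.812).

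The Oas genes encode enzymes and relatives that answer double-stranded RNA. Oas2 read 4.89, 4.52, 4.40 and 5.09 in wt and 4.89, 5.04, 4.57 and 5.28 in Irak1-/- arrays, with a difference of 0.22 (SE 0.120, adjusted p = 0.812). It was higher in 4 of 4 pairs, though by 0.000673 in replicate 1. Oasl2 had the largest difference of the effectors, 0.35 (SE 0.174, adjusted p = 0.792), of which replicate 3 gave the greatest share. It read 4.43, 4.61, 3.72 and 4.45 in wt and 4.55, 4.56, 4.76 and 4.74 in Irak1-/- arrays. The wt value of replicate 3 lies under the filter level of 3.90, and without replicate 3 the difference was 0.12.

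Oas3 had a difference of -0.22, Bst2, the tetherin that holds budding virus, -0.25, and Ifit2 -0.17. In each of these the Irak1-/- array of replicate 3 was the lowest of the 8, at 5.26, 7.24 and 5.09. The 6 other effectors, Isg20, Cmpk2, Samd9l, Rtp4, Oasl1 and Ifit3, had differences between -0.11 and 0.12. Among the genes below the filter, Mx1, a dynamin-like antiviral GTPase, read 3.14 to 3.84 in wt and 3.00 to 3.63 in Irak1-/- arrays. Rsad2, the antiviral enzyme viperin, read 3.59 to 4.20 and 3.59 to 4.02, and Phf11d 2.60 to 3.24 and 2.08 to 3.51.

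Isg15 and Usp18 belong to a single system, since Isg15 is a ubiquitin-like tag and Usp18 removes it and also dampens the type I interferon receptor. Usp18 read 5.76, 5.57, 5.82 and 5.57 in wt and 6.11, 5.83, 6.00 and 5.78 in Irak1-/- arrays, higher in 4 of 4 pairs. The pair differences of 0.36, 0.26, 0.18 and 0.21 gave 0.25 (SE 0.104, adjusted p = 0.723). Isg15 read 6.09, 5.79, 5.69 and 5.68 in wt and 5.47, 5.62, 5.24 and 6.07 in Irak1-/- arrays, a difference of -0.21 (SE 0.165, adjusted p = 0.894), with the opposite sign in replicate 4. The tag and its protease therefore had estimates on opposite sides of 0, and neither passed.

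Guanylate-binding proteins held the member with the smallest p. Gbp5, which promotes inflammasome assembly and attacks microbial vacuoles, read 5.75, 5.24, 5.43 and 5.05 in wt and 6.04, 5.70, 6.28 and 5.37 in Irak1-/- arrays. It was higher in 4 of 4 pairs, by 0.29, 0.46, 0.85 and 0.31, and the largest step came from replicate 3. The log2 difference was 0.48 (SE 0.127, adjusted p = 0.449), a ratio of 1.39 with a 95% confidence interval from 1.14 to 1.70. Without replicate 3 it was 0.35. Mean differences of the myeloid markers, in the order of these pairs, were 0.91, 1.11, 1.40 and 1.42.

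The other 4 members of the family differed by less. Gbp7, which supports the oxidative burst, had -0.17 (SE 0.135, adjusted p = 0.898), from 7.53, 7.28, 7.33 and 7.59 in wt and 7.71, 7.08, 6.78 and 7.46 in Irak1-/- arrays. Gbp4 had -0.16 (SE 0.132, adjusted p = 0.908), with wt arrays at 8.13, 7.73, 8.12 and 7.99 and Irak1-/- arrays at 8.03, 7.58, 8.29 and 7.45. In both genes the Irak1-/- arrays spread more widely than the wt arrays and enclosed their range. Gbp3 had -0.01 and Gbp9 0.06. Gbp9 was the least precise member, because its pair differences ran from -0.71 in replicate 3 to 0.75 in replicate 4.

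Immunity-related GTPases were split between their members. Igtp (also called Irgm3), a regulatory GTPase that protects host membranes, read 9.45, 9.11, 9.15 and 9.29 in wt and 9.23, 9.03, 8.69 and 9.14 in Irak1-/- arrays. Irgm2, its neighbour on chromosome 11 with the shared promoter stretch printed earlier, read 7.78, 7.53, 7.97 and 7.68 in wt and 7.60, 7.36, 7.47 and 7.62 in Irak1-/- arrays. Both were lower in 4 of 4 pairs and had nearly the same difference, -0.23 for Igtp (SE 0.113, adjusted p = 0.792) and -0.23 for Irgm2 (SE 0.116, adjusted p = 0.792). Pair differences were -0.21, -0.08, -0.47 and -0.15 for Igtp and -0.18, -0.17, -0.50 and -0.06 for Irgm2, and in both replicate 3 gave the largest. Without it the estimates were -0.15 and -0.14. The part of the shared promoter stretch in this likeness was not tested, and probe sets of this family can also bind close copies.

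Irgm1, the remaining regulatory member, had 0.07 (adjusted p = 0.952). Iigp1, an effector GTPase that coats and breaks vacuoles, read 6.85, 6.16, 6.94 and 6.75 in wt and 6.78, 6.59, 7.15 and 7.16 in Irak1-/- arrays. It was higher in 3 of 4 pairs, with a difference of 0.25 (SE 0.122, adjusted p = 0.792), so its estimate lay opposite to those of Igtp and Irgm2.

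**Figure D2:**
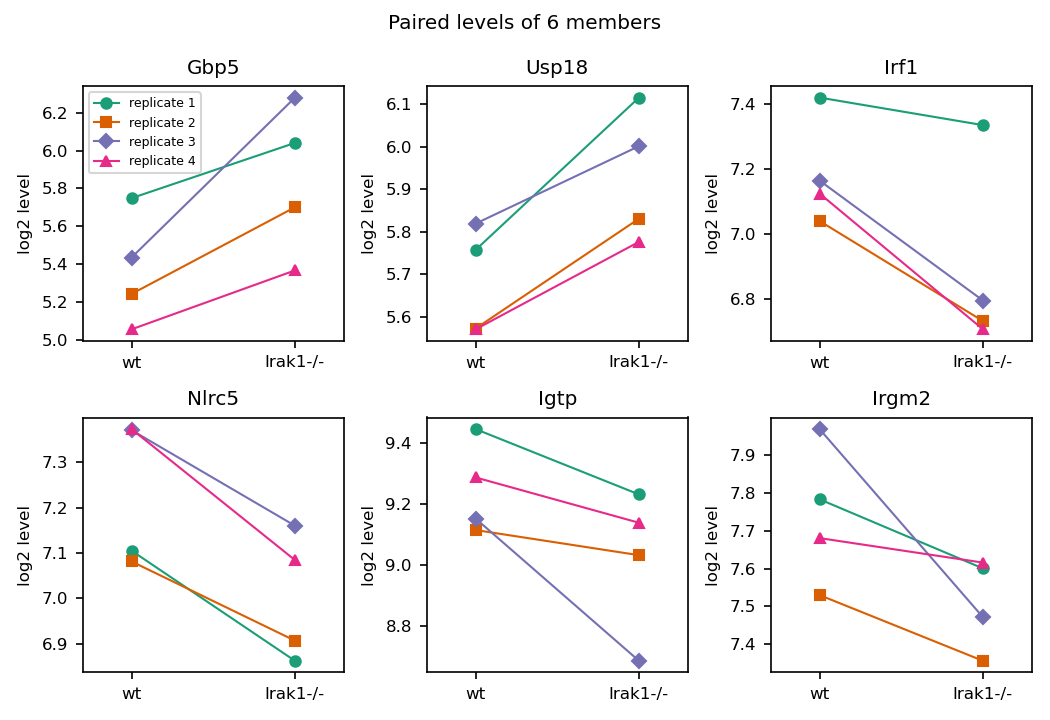
Log2 levels of 6 members on the vertical axis, each panel with its own scale, in wt and Irak1-/- arrays; lines join the arrays of a replicate experiment. Gbp5 and Usp18 were higher and Irf1, Nlrc5, Igtp and Irgm2 lower in 4 of 4 pairs, and none passed the adjusted threshold.

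Among the remaining members, Trim30a, a restraint on Toll-like receptor signals to NF-kappaB, read 6.66, 6.29, 6.57 and 6.39 in wt and 6.16, 6.10, 6.62 and 5.74 in Irak1-/- arrays. Its difference was -0.32 (SE 0.137, adjusted p = 0.736), and it was lower in 3 of 4 pairs, the exception being replicate 3. Xaf1, a promoter of apoptosis, read 8.18, 7.95, 7.94 and 8.28 in wt and 7.95, 7.98, 7.79 and 8.11 in Irak1-/- arrays, a difference of -0.13 (adjusted p = 0.908). Parp9, of the ADP-ribosyltransferase family, read 7.04, 7.05, 6.53 and 6.49 in wt and 7.11, 6.86, 6.73 and 6.84 in Irak1-/- arrays, a difference of 0.11 (adjusted p = 0.936). Parp14 had -0.04, and Ifi35 -0.06, or -0.09 on a second probe set. Tap1, the peptide transporter that loads MHC class I, had a difference of 0.00 (95% confidence interval -0.27 to 0.27), and read 8.28 to 8.43 in wt and 8.12 to 8.54 in Irak1-/- arrays.

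A constant sign over the 4 pairs was counted as well. It was seen for 3 members that were higher (Gbp5, Usp18 and Oas2), or 7.69% beside 5.26% of all genes, and for 5 that were lower (Irf1, Irf9, Nlrc5, Igtp and Irgm2), or 12.8% beside 8.91%. Both shares lie close to those of all genes.

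The GTPases named in the rule were set against the antiviral genes to see whether the part of the programme led by interferon gamma moved apart from that led by type I interferon. The median log2 difference, Irak1-/- minus wt, was -0.01 over 9 tested GTPases and 0.00 over 16 tested antiviral genes. By pair the GTPase medians were -0.05, -0.08, -0.09 and 0.06, and the antiviral medians 0.02, 0.00, -0.20 and 0.21. The antiviral genes were higher on the Irak1-/- array for 14 of 16 in replicate 4 and for 5 of 16 in replicate 3, so the pairs went opposite ways. Of all 13308 genes, 6687 were higher in replicate 4 and 5659 in replicate 3. The GTPases were higher for 4, 3, 4 and 5 of 9. Without the Irak1-/- array of replicate 3, in a fit without pairs, the medians were -0.01 for GTPases and 0.11 for antiviral genes, and the difference between the sets was not tested.

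Levels were also compared between the replicate experiments, over both genotypes. The median range of the 4 experiment means was 0.426 over members and 0.305 over all genes, on the log2 scale. The median size of the genotype difference was 0.127 for members and 0.0960 for all genes. A range of experiment means is wider by construction than a difference of genotype means, so these sizes are not compared with each other. No member passed the moderated F test for experiment at an adjusted p under 0.05 by limma, nor did any of all genes (0%, lowest adjusted p 0.248). At an unadjusted p under 0.05 there were 11 of 39 members, or 28.2%, beside 9.66% of all genes. With 1 experiment left out at a time this number was 5 to 7. The 11 were Dhx58, Oas3, Gbp3, Gbp5, Oas2, Iigp1, Bst2, Irf1, Irf8, Gbp4 and Gbp7, which include 4 of the 5 tested guanylate-binding proteins.

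The position of each member against its own mean was counted by experiment. Of the 39, 30 on the wt array and 28 on the Irak1-/- array of replicate 1 lay above their own mean over 8 arrays, and 23 did so on both, while 33.7% of all genes did. In replicate 2, 21 members lay below their mean on both arrays, where 23.6% of all genes did. In replicate 3 there were 16 such members, where 28.7% of all genes did, and 7 of the 16 were also among those of replicate 2. In replicate 4, 11 members lay above on both arrays and 4 below, beside 23.22% and 24.95% of all genes, and the other 24 lay on opposite sides in the pair. Over all genes, the array medians of the centred levels lay between -0.06 and 0.04. The deposited values already had similar array medians, 4.25 to 4.31, so this is not a check on the members.

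The GTPases and antiviral genes were counted in the same way. GTPases had their lowest medians in replicate 2, where 7 of 9 lay below their mean on both arrays and 0 above on both, with medians of -0.18 in wt and -0.20 in Irak1-/- arrays. Antiviral genes had their lowest medians in replicate 3, where 11 of 16 lay below on both arrays and 2 above, with medians of -0.08 and -0.28. In replicate 3 the GTPases had 3 of 9 above on both arrays and 1 below, so 5 lay on opposite sides in the pair. This difference between the sets was not tested, and the Irak1-/- array of replicate 3 is the one with the lower correlations.

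Single genes show these positions. Gbp3, the GTPase with the smallest p for experiment, read 6.60, 6.01, 6.44 and 6.38 in wt and 6.67, 5.93, 6.35 and 6.44 in Irak1-/- arrays, lowest in replicate 2 for both genotypes (adjusted p = 0.412). Iigp1 likewise had its lowest experiment mean in replicate 2, 6.38, beside 6.81 to 7.05 in the others. Oas3, which makes the activator of RNase L, read 6.35, 6.64, 5.84 and 6.02 in wt and 6.40, 6.22, 5.26 and 6.11 in Irak1-/- arrays, lowest in replicate 3 for both (adjusted p = 0.412). Dhx58 had an experiment mean of 4.45 in replicate 3, beside 5.06 to 5.32 in the others (adjusted p = 0.407). Gbp5 had its lowest mean in replicate 4, at 5.21, so the GTPases were not uniform.

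**Figure D3:**
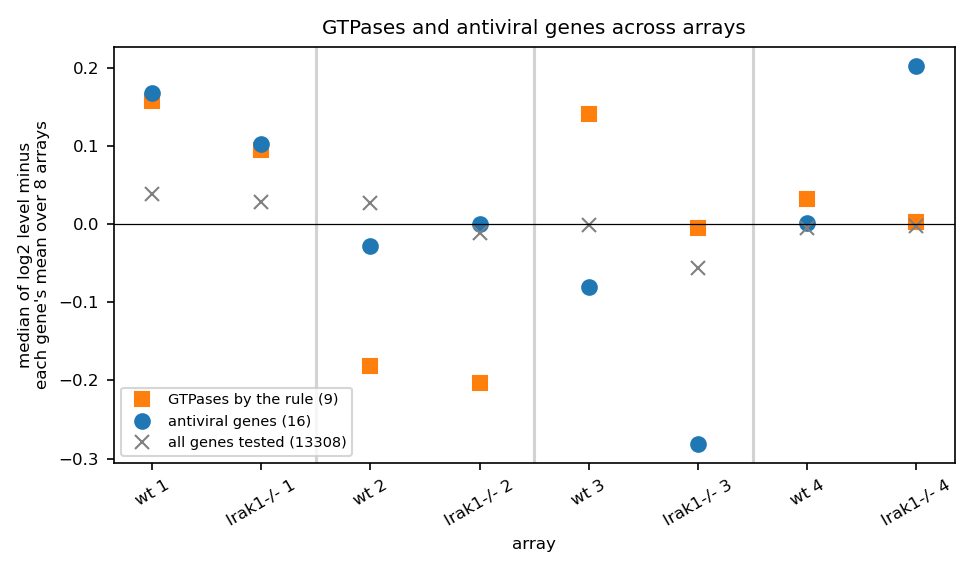
Median, over the genes of each set, of the log2 level minus each gene's mean over 8 arrays (vertical axis) for each array (horizontal axis); squares are 9 GTPases, circles 16 antiviral genes and crosses all genes tested. GTPases were lowest in replicate 2 (-0.18 and -0.20) and antiviral genes in replicate 3 (-0.08 and -0.28).

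**Figure D4:**
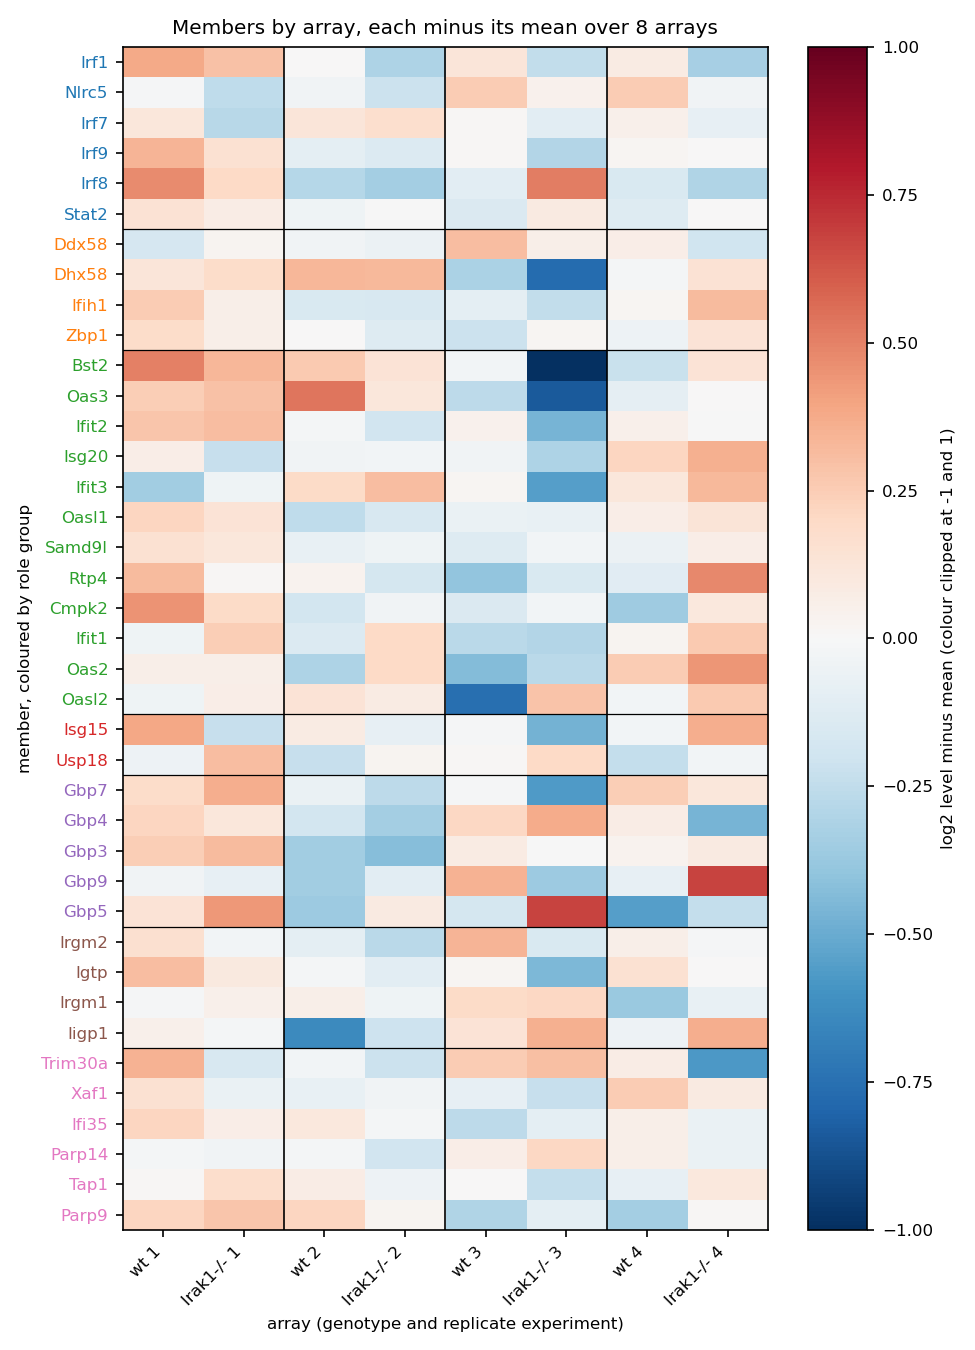
Log2 level of each of the 39 tested members minus its mean over 8 arrays, by array (columns, in pairs) and role group (rows, label colours); red is above and blue below the mean, with colours clipped at -1 and 1. The Irak1-/- array of replicate 3 holds the lowest values of Bst2, Oas3, Dhx58 and Ifit2.

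Other genes of the pathway were counted from a list of ligands, receptors, kinases, inhibitors and further interferon-induced genes. This list too was chosen with earlier results of these data known. Of 88 tested, 1 was called higher and 0 lower at an adjusted p under 0.05, with a median of 0.00. Over all genes 0.0676% were called higher and 0.00751% lower. The gene called was Cxcl9, a chemokine induced by interferon gamma. Cxcl9 read 4.90, 4.36, 4.74 and 5.11 in wt and 6.29, 5.88, 6.76 and 6.18 in Irak1-/- arrays. Its groups did not overlap, as was so for 4 of the 88, beside 3.04% of all genes. The log2 difference was 1.50 (SE 0.155, adjusted p = 0.00892), or 1.54 (adjusted p = 0.0519) without replicate 1 and 1.49 (adjusted p = 0.115) without replicate 2.

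Among the ligands, Ifng, the cytokine that induces the GTPases, read 9.11, 8.65, 8.50 and 8.92 in wt and 8.59, 8.54, 7.60 and 7.97 in Irak1-/- arrays, lower in 4 of 4 pairs with a difference of -0.62 (SE 0.152, adjusted p = 0.404). The receptor chains for interferon gamma had -0.08 (Ifngr1) and 0.28 (Ifngr2), and those for type I interferon -0.12 (Ifnar1) and 0.14 (Ifnar2), with adjusted p from 0.812 to 0.950. Ifngr1 turned to 0.01 without replicate 3, and Ifnar2 to -0.03 without replicate 4. The 12 kinases and factors tested had differences between -0.21 and 0.07. Of the inhibitors, Socs1, which blocks JAK kinases, had 0.27 (adjusted p = 0.708, higher in 4 of 4 pairs) and Cish, a target of STAT5, had -0.34 (adjusted p = 0.603, lower in 4 of 4 pairs).

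The further interferon-induced genes with the smallest p after Cxcl9 did not pass. Ifi205, of the HIN-200 family, had 1.00 (adjusted p = 0.473), from a wt mean of 3.57 that lay under the filter level of 3.90. Its relative Ifi204, a DNA sensor, had 0.59 (adjusted p = 0.559). The peptidase Lap3 had 0.38 (adjusted p = 0.582) and Psme2, a subunit of the proteasome activator, -0.46 (adjusted p = 0.699, without replicate 3 -0.29). The myeloid marker values given earlier stand beside these differences too.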

How the data were processed

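RNA of 8 sorted samples was labelled with biotin and hybridized to Affymetrix arrays, 1 per sample, per the labels' protocols. The authors deposited log2 levels for 41345 probe sets; the sources used here state neither background correction nor normalization. Values ran from 0.681 to 14.0. Gene symbols came from the platform annotation: 23521 probe sets had 1 symbol, 1814 several and 16010 were unnamed here. For 23328 annotations of 1 symbol the gene identifier matched RefSeq, and the RefSeq symbol was used, whether or not it differed. Probe sets of the GBP, IRG and Oas families can also bind close copies. The test was limma 3.58.1 (R 4.3.3), two-sided, batch as a block, Benjamini-Hochberg over 13308 genes, called at an adjusted p under 0.05. Cells of a pair shared recipients. Deviations of same-numbered arrays from their group means correlated at 0.0799 to 0.200, and those of differently numbered arrays at -0.222 to 0.226. Deviations within a group cancel out in sum, which ties these correlations to each other. They therefore cannot decide for or against the pairing, which rests on the labels. The fits were tested on simulated data. Full values are given for the 3 members of each role group with the smallest p, the 6 with the smallest p for experiment, and fixed pathway genes with the next 6 by p; other members are given more briefly, so that each is accounted for. Members and lists were chosen with earlier results of these data known. Alternatives were no block, a random block, 2 scalings, 2 level filters, other uses of probe sets, trend and robust settings, each pair left out, and the Irak1-/- array of replicate 3 left out.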

Additional observations from a re-analysis of the deposited data

Results flagged for a closer look

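Within the 4 arrays of a genotype, a single array stood far from the others in 4 of 78 groups, and chance flags about 5% of groups. Irf1 read 7.34 on the Irak1-/- array of replicate 1, against 6.71 to 6.80 on the other Irak1-/- arrays. The other 3 were low values on the Irak1-/- array of replicate 3, the array that stood apart over all probe sets. Dhx58 read 4.23 there against 5.14 to 5.32, Ifit1 5.15 against 5.65 to 5.71, and Bst2 7.24 against 8.48 to 8.68.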

How the results depend on the processing

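None of the members was called in either direction under any alternative that refitted the genes, with a lowest adjusted p between 0.353 and 0.963. The fit with no replicate block called 0 members too, and its lowest adjusted p of 0.963 was the highest of all. The member median ran from -0.05 to 0.03, and the GTPase and antiviral medians from -0.04 to 0.02 and from -0.07 to 0.11. Over all genes, 9 higher and 1 lower became 14 and 2 with a random replicate block and with median centring, 1 lower became 2 with a filter at the 60th percentile and 3 with trend and robust settings, and higher calls ran from 6 to 16 with each pair left out. With trend and robust settings 1 gene, and 0 members, differed between experiments. Members with an unadjusted p under 0.05 for experiment numbered 5 to 7 with each pair left out. Signs turned, in a fit without the block and without Irak1-/- replicate 3, for Dhx58 (0.192), Oas3 (0.0266) and Ifngr1 (0.0298). With a pair left out they turned for Dhx58 (-0.129 to 0.077), Zbp1 (-0.0268 to 0.0963), Gbp3 (-0.0364 to 0.0166), Ifngr1 (-0.133 to 0.0107) and Ifnar2 (-0.0309 to 0.22), and the cause was not tested. Cxcl9 ran from 1.33 to 1.65 there and missed the threshold without replicate 1 and without replicate 2. Adding Tgtp1 and a log transform were not run, since Tgtp1 was not analysed here and the values were on the log2 scale. With 4 arrays a group, precision is limited.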
